A study of Mus musculus with 31 samples.

Results

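Skin treated with vehicle only was followed over time in C3H/HeJ mice, using 3 arrays of PBS skin at 12 weeks and 3 of PBS skin at 0 weeks. These 6 arrays were chosen by their titles, out of 31 in the series. Every mouse was of the inbred C3H/HeJ strain and the tissue was labelled skin in all groups. PBS is phosphate-buffered saline, the arm without a drug in a study of topical Janus kinase inhibitors on mice with established AA, an abbreviation taken to stand for alopecia areata. The remaining arrays were PBS skin at 6 weeks (3 arrays) and 22 arrays of skin under the inhibitors jak1i and jak3i, which are known here by these codes and were sampled from 0 weeks on. No genotype, age, sex, dose or body site is given in the sources used here, nor whether the same animals were sampled over time. The replicates are called biological by the submitters.

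Alopecia areata is an autoimmune disease in which cytotoxic T cells gather around growing hair follicles and the hair is lost. Interferon-γ from these cells acts through Janus kinases and raises MHC molecules and chemokines in the follicle, and aged C3H/HeJ mice develop a form of the disease that is used as its model. Beneath the dermis and the subcutaneous fat, mouse skin also holds a sheet of striated muscle, the panniculus carnosus. Its fibres are built as other skeletal muscle is: thick filaments of myosin slide along thin filaments of actin, Z-discs anchor the thin filaments, titin and nebulin act as molecular rulers, and calcium released from the sarcoplasmic reticulum starts contraction. A piece of mouse skin can therefore carry muscle RNA beside that of epidermis, hair follicle, fat and immune cells, and the muscle genes are described here apart from those of the skin.

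Expression is given as the log2 value that the authors obtained with RMA, which corrects background, brings the arrays to 1 distribution and sums up the probes of a probe set. Array medians of the 6 arrays were 6.05 to 6.22. All 31 arrays entered a single limma fit of 11 group means over 18193 genes, and the word changed is used of a gene whose p, adjusted by the Benjamini-Hochberg method, was under 0.05. Differences below are log2 differences, 12 minus 0 weeks unless stated, written as the difference ± its standard error with the adjusted p. As a check of the tissue label, the epidermal keratin genes Krt5 and Krt14 were bright on all 31 arrays, at 12.42 and 12.97 or more, and they differed by −0.04 ± 0.18 (adjusted p = 0.95) and 0.02 ± 0.16 (adjusted p = 0.968) between 12 and 0 weeks. Values of different genes come from different probe sets, so levels are compared between arrays and not between genes.

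From 0 to 12 weeks 414 genes changed, 2.28% of those tested, with 253 higher (1.39%) and 161 lower (0.885%). The falls were larger than the rises: 112 genes fell and 10 rose at least 2-fold. To part muscle from skin, each gene was correlated with the mean of 104 skeletal muscle genes over the 25 arrays outside this comparison, using deviations from each group's mean. A gene with a correlation of at least 0.7 is said here to follow muscle, which held for 592 genes. Of these, 96 changed and all 96 were lower, 95 of them at least 2-fold, with a median of −3.38. The other changed genes were 253 higher, with a median of 0.50, and 65 lower, of which 7 stand on the muscle lists themselves. The correlation is a description over arrays that share 9 group means and carries no p.

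**Figure D1:**
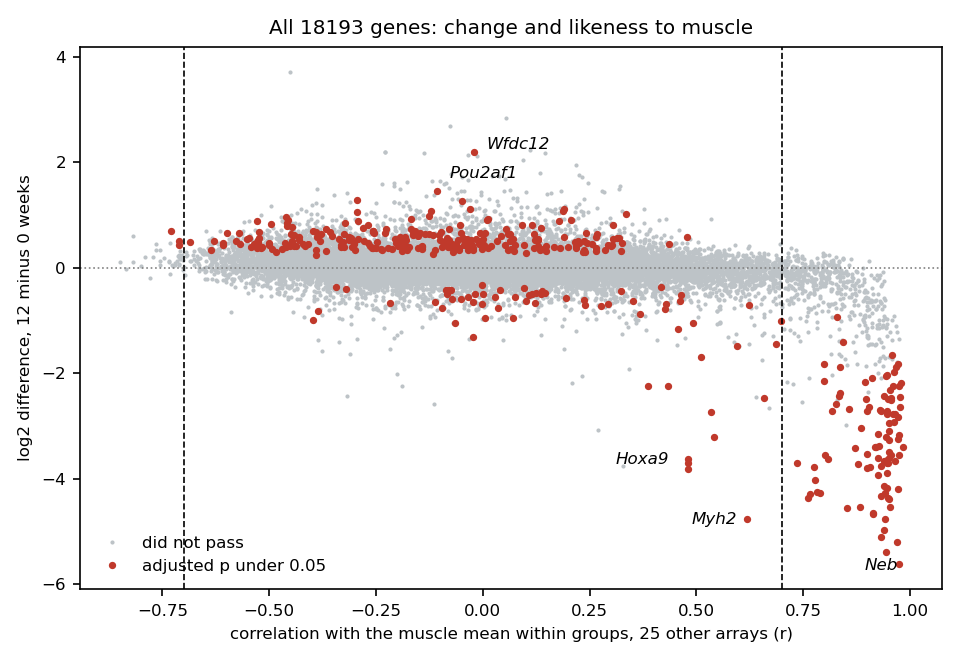
Each point is 1 of 18193 genes, with its log2 difference (12 minus 0 weeks) on the vertical axis and its within-group correlation with the muscle mean over 25 other arrays on the horizontal axis. Dashed lines stand at correlations of −0.7 and 0.7, and red points passed the test. The large falls lie at the right, down to Neb at −5.63, whereas the rises lie across the low correlations with most under 1.

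Skeletal muscle genes were low on all 3 arrays at 12 weeks. The mean over the 104 genes was 9.38, 8.30 and 8.76 at 0 weeks, 9.32, 8.05 and 8.85 at 6 weeks, and 5.57, 6.82 and 6.15 at 12 weeks. Every 12-week array lay below all of the 28 other arrays of the series, whose lowest value was 8.05 and median 8.89. The 22 inhibitor arrays lay between 8.33 and 10.06. Of the 104 genes, 62 fell and 0 rose against 0 weeks, with a median over all 104 of −2.70, while the median of all genes tested was 0.03. The groups did not overlap in 87 of the 104, all lower, where 23.9% of all genes had no overlap and 8.18% were lower without overlap. For 78 genes each 12-week array was below all 28 others. In whole tissue, fewer muscle fibres and less muscle RNA per fibre cannot be told apart. Neither the body site nor the depth of the skin taken is given in the sources used here, so less muscle in the piece sampled cannot be told apart from them either. Detection calls were not used, and whether the 12-week values lay above background was not tested.

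**Figure D2:**
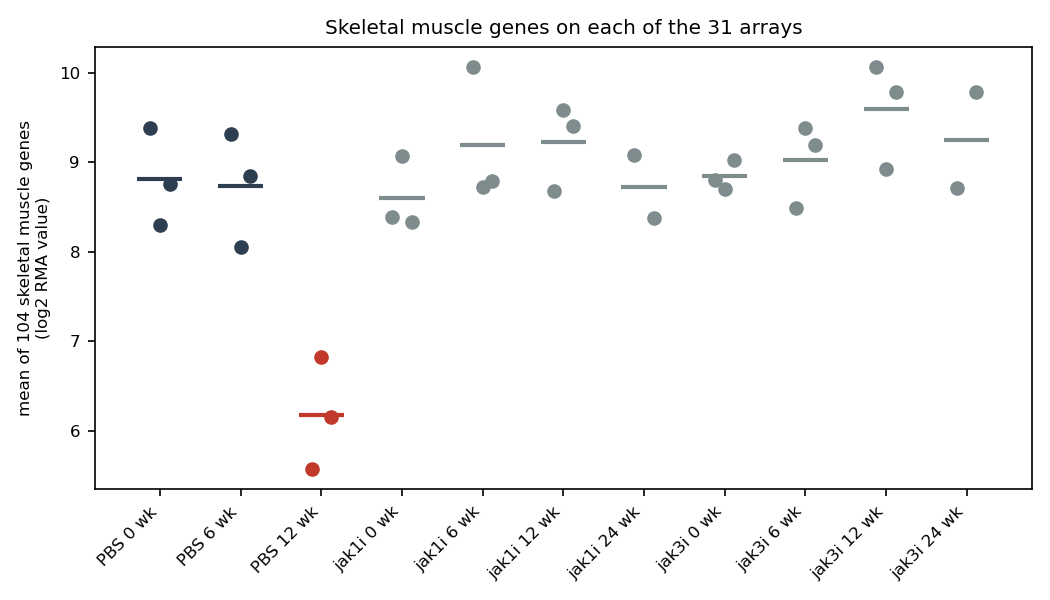
Mean log2 RMA value of 104 skeletal muscle genes on each of the 31 arrays. Points are arrays, horizontal lines are group means, and the groups stand in order of arm and week. The 3 PBS arrays at 12 weeks lie between 5.57 and 6.82, below every other array.

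The promoters of 3 muscle genes that fell are shown first, since these genes take part in different steps of muscle function: Acta1 encodes the actin of skeletal thin filaments, Klhl41 a protein that stabilises nebulin and the thin filament, and Myog the transcription factor myogenin. Each window runs from 250 bases before to 50 bases after the gene's start in RefSeq (build GRCm38.p6) and is written 5′ to 3′ on the gene's strand, at chr8:123894726-123895025 (minus strand) for Acta1, chr2:69669870-69670169 (plus) for Klhl41 and chr1:134289754-134290053 (plus) for Myog. Capitals mark matches to the E-box CANNTG, which MyoD family factors bind, and to the TATA box TATAAA. They also mark the MEF2 box YTAWWWWTAR and the CArG box CCWWWWWWGG, the latter bound by serum response factor. Here N is any base, Y is C or T, W is A or T, and R is A or G.

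Acta1: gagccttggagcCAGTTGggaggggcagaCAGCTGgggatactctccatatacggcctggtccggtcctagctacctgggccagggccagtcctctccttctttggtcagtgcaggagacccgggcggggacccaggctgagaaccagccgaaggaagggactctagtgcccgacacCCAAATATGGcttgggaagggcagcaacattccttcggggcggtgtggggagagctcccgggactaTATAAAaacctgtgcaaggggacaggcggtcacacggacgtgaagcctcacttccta
Klhl41: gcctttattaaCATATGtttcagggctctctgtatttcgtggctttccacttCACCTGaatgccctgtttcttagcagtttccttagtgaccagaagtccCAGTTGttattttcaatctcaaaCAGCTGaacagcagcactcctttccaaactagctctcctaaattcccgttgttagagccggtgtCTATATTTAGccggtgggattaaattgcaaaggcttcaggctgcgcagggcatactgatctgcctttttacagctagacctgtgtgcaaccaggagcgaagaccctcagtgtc
Myog: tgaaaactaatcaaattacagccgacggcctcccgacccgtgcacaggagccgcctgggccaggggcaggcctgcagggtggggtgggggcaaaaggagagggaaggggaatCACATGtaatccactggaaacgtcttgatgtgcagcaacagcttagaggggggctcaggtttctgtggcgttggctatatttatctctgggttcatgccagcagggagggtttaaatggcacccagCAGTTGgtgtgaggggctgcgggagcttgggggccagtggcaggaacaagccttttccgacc

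The Acta1 window held 2 E-boxes, 1 CArG box and 1 TATA box, the Klhl41 window 4 E-boxes and 1 MEF2 box, and the Myog window 2 E-boxes. The stretch ctatatttat of the Myog window misses the MEF2 pattern only at its last base and was not counted. A window without a match can thus still hold a site of that kind. RefSeq windows were found for 44 of the 62 muscle genes that fell, with 53 windows in all, and both strands were searched. An E-box stood in 84.9% of them against 72.3% of all 32851 windows, a MEF2 box in 15.1% against 3.19%, a CArG box in 7.55% against 1.63%, and a TATA box in 13.2% against 13.6%. A match to these letters describes the sequence and says nothing of binding in this skin.

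In the thick filament and its partners 10 of 18 genes fell (median of the 18, −3.73), where 0.885% of all genes did. Ttn, which encodes the giant spring protein titin, read 12.74, 11.76 and 11.59 at 0 weeks, 12.94, 11.55 and 12.18 at 6 weeks, and 5.19, 8.60 and 6.96 at 12 weeks. It fell by 5.11 (0.65, adjusted p = 3.6e-04), or 34.5-fold, and its 12-week values lay below the range of the 28 other arrays, 10.87 to 13.57. Among the 12-week arrays replicate 1 was lowest and replicate 2 highest, as in the mean over the 104 genes.

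The myosin heavy chain genes of fast fibres were read separately. Myh1, the heavy chain of type IIx fibres, went from 13.89, 13.32 and 13.43 to 6.60, 11.57 and 8.78 (−4.56 ± 0.70, adjusted p = 0.00133), and Myh2, that of type IIa fibres, from 11.95, 10.97 and 10.71 to 5.07, 7.99 and 6.26 (−4.77 ± 0.69, adjusted p = 8.0e-04). Myhas, an antisense RNA of the myosin heavy chain genes, went from 10.05, 9.43 and 9.42 to 4.52, 7.96 and 4.95 (−3.82 ± 0.50, adjusted p = 3.6e-04). Neither Myh2 (r = 0.62) nor Myhas reached the muscle correlation of 0.7. Myh4, the type IIb heavy chain, varied widely at 0 weeks, with 10.08, 8.93 and 13.24 against 6.06, 9.44 and 8.99, so that the groups overlapped and it did not pass (−2.58 ± 1.42, adjusted p = 0.381). Near-identical myosin sequences can share probes, and the heavy chains may not be fully apart on the array.

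Light chains and cross-linkers fell along with the heavy chains. Myl1, an alkali light chain of fast muscle, went from 13.65, 12.55 and 13.12 to 6.55, 10.27 and 8.51 (−4.66 ± 0.61, adjusted p = 3.6e-04). Mylpf, the phosphorylatable fast light chain, went from 13.10, 11.81 and 12.60 to 7.34, 9.81 and 8.55 (−3.94 ± 0.54, adjusted p = 4.4e-04). The M-band genes Myom2 (−4.54) and Myom1 (−3.69), the myosin binding proteins Mybpc1 (−4.37) and Mybpc2 (−4.26), and Trim63 (−3.77), a ubiquitin ligase of sarcomere proteins, also fell.

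The slow myosin and slow troponin genes named here did not pass, and no wider set of slow-fibre genes was drawn up. Myh7, the slow heavy chain, read 9.70, 5.05 and 5.46 at 0 weeks and 4.84, 6.75 and 5.17 at 12 weeks (−1.15 ± 1.59, adjusted p = 0.788). Myl2, the slow regulatory light chain, read 10.23, 4.45 and 5.44 and then 4.31, 6.68 and 4.53 (−1.53 ± 1.89, adjusted p = 0.756). Both were high on replicate 1 at 0 weeks alone. The slow troponin genes Tnnt1 (−2.43, adjusted p = 0.387), Tnni1 (−1.58, adjusted p = 0.422) and Tnnc1 (−1.27, adjusted p = 0.705) did not pass either.

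Of the thin filament genes 11 of 16 fell (median of the 16, −3.38), where 0.885% of all genes did. The largest fall among all named genes was that of Neb, the gene of nebulin on chromosome 2, which read 12.02, 10.99 and 11.16 at 0 weeks, 11.97, 10.33 and 11.25 at 6 weeks, and 3.82, 7.86 and 5.60 at 12 weeks. The difference was −5.63 (95% interval −7.18 to −4.07; adjusted p = 3.9e-04), a 49.4-fold lower level. Klhl41 followed with 11.48, 10.43 and 10.56 against 3.90, 7.15 and 5.24 (−5.39 ± 0.68, adjusted p = 3.6e-04). Acta1 went from 13.80, 13.17 and 13.55 at 0 weeks to 7.38, 11.20 and 9.50 at 12 weeks (−4.15 ± 0.55, adjusted p = 3.6e-04).

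The fast troponin complex, which carries the calcium switch of the thin filament, fell in its 3 subunits: Tnnt3 by 4.76 ± 0.72 (adjusted p = 0.00109), Tnni2 by 4.38 ± 0.62 (adjusted p = 6.5e-04) and Tnnc2 by 4.33 ± 0.54 (adjusted p = 3.6e-04). The filament nucleators and caps Lmod3 (−3.70), Lmod2 (−3.54) and Tmod4 (−2.65), and the assembly factors Nrap (−3.21) and Klhl40 (−2.69), fell as well. Tpm2, a tropomyosin that smooth muscle and other cells also make, stayed bright, with 12.31, 12.44 and 12.40 against 12.36, 11.70 and 12.27, and did not pass (−0.27 ± 0.20, adjusted p = 0.552). Actc1, the cardiac actin of developing muscle, did not pass (−1.54, adjusted p = 0.163).

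In the Z-disc 13 of 16 genes fell and none of the 16 overlapped between the groups (median −3.63). Of all genes 0.885% fell and 23.9% had no overlap. Myot, the gene of myotilin, read 11.52, 10.02 and 10.66 at 0 weeks and 4.11, 7.52 and 4.99 at 12 weeks (−5.20 ± 0.78, adjusted p = 0.00105). Smpx, a small cytoskeletal protein gene of striated muscle, read 10.94, 9.89 and 10.61 and then 4.24, 7.10 and 5.19 (−4.97 ± 0.69, adjusted p = 4.4e-04). Csrp3 (−4.26), Cmya5 (−4.26), Ldb3 (−3.89), Pdlim3 (−3.72), the α-actinins Actn2 (−3.78) and Actn3 (−3.70), and the titin cap gene Tcap (−3.56) fell with them. Myoz1 (−3.41), Synpo2l (−3.37), Myoz2 (−3.20) and Xirp1 (−1.49) completed the 13. Myoz3 (−1.86, adjusted p = 0.117), Flnc (−1.40, adjusted p = 0.084) and Ankrd2 (−1.17, adjusted p = 0.214) did not pass.

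Of 20 genes for calcium handling and excitation 12 fell (median of the 20, −2.19), where 0.885% of all genes did. Ryr1, the calcium release channel of the sarcoplasmic reticulum, read 10.30, 9.18 and 9.75 at 0 weeks and 5.46, 6.75 and 6.19 at 12 weeks (−3.61 ± 0.65, adjusted p = 0.00456). Atp2a1, the pump that returns calcium, read 10.97, 9.82 and 10.87 and then 5.94, 8.03 and 6.86 (−3.61 ± 0.65, adjusted p = 0.00484). Its inhibitor gene Sln read 9.21, 9.0 and 7.79 and then 5.01, 5.04 and 4.85 (−3.70 ± 0.81, adjusted p = 0.0169). All 3 of its 12-week values lay close together and far below the lowest at 0 weeks.

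Trdn, which ties the release channel to the calcium store (−4.20), Pvalb, the calcium buffer of fast fibres (−3.62), Casq1, the calcium store of fast fibres (−3.40), Srl (−3.40), Jph1 (−2.78), the channel genes Cacna1s (−2.77) and Cacng1 (−2.14), and Hrc (−2.06) fell. Chrna1, the acetylcholine receptor subunit at the nerve contact, read 7.96, 8.27 and 7.48 at 0 weeks, 7.19, 6.02 and 6.36 at 6 weeks, and 5.71, 5.76 and 5.52 at 12 weeks (−2.24 ± 0.49, adjusted p = 0.0173). Its 6-week values lay between the other groups, whereas those of Ryr1 and Atp2a1 at 6 weeks (8.89 to 10.71 and 9.99 to 11.49) lay at the level of 0 weeks. The slow store gene Casq2 (−0.41, adjusted p = 0.609), Clcn1 (0.17) and Chrne (0.11) did not pass.

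Of 21 genes for energy supply in muscle 12 fell (median of the 21, −2.71), where 0.885% of all genes did. Mb, the gene of the oxygen store myoglobin, read 13.17, 12.25 and 12.07 at 0 weeks and 7.21, 9.21 and 7.97 at 12 weeks, a 20.6-fold lower level (−4.36 ± 0.64, adjusted p = 8.8e-04). Ckm, muscle creatine kinase, read 12.25, 10.58 and 12.13 and then 6.65, 8.96 and 7.93, a 14.0-fold lower level (−3.80 ± 0.65, adjusted p = 0.00347). Apobec2 (−4.53), Ckmt2 (−4.03), the glycolytic genes Eno3 (−3.76), Pgam2 (−3.49) and Pfkm (−2.50), the glycogen phosphorylase gene Pygm (−3.40), the muscle subunits Cox6a2 (−2.82) and Cox8b (−2.72) of cytochrome oxidase, the fatty acid carrier gene Fabp3 (−2.74) and Adssl1 (−2.71) fell. Against these, 0 of 23 genes of the respiratory chain that all tissues use changed, with a median of −0.00. Even so, 10 of the 23 followed muscle by the correlation, whose median over the 23 was 0.69.

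Among 13 regulators and membrane proteins of muscle 4 fell (median of the 13, −1.74), where 0.885% of all genes did. Myf6, a myogenic factor of mature fibres, read 7.42, 6.56 and 7.20 at 0 weeks and 4.37, 4.22 and 4.45 at 12 weeks (−2.71 ± 0.61, adjusted p = 0.0189). Myog read 7.66, 7.50 and 6.09 at 0 weeks, 6.52, 5.96 and 5.96 at 6 weeks, and 4.78, 4.92 and 4.84 at 12 weeks (−2.24 ± 0.57, adjusted p = 0.0413). Its 6-week values stood above all 12-week values and overlapped with those of 0 weeks. Itgb1bp2 (−2.46) and the sarcoglycan gene Sgca (−1.82) also fell. Genes of muscle stem cells and early commitment, Pax7 (−0.17, adjusted p = 0.627), Myf5 (−0.30) and Myod1 (−0.48, adjusted p = 0.586), did not pass, and all were dim at the start, with Myod1 at 5.85, 6.02 and 5.40.

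**Figure D3:**
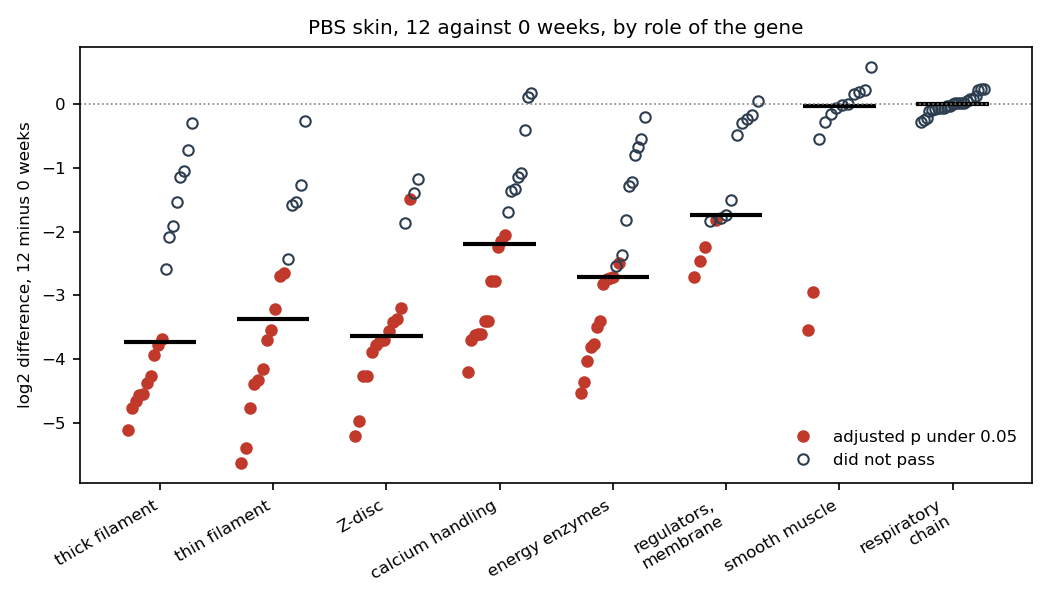
Log2 difference (12 minus 0 weeks) of each gene in the 6 skeletal muscle lists, in smooth muscle and in the respiratory chain. Filled red points passed the test, open points did not, and horizontal lines are list medians. The medians of the skeletal lists run from −3.73 to −1.74, whereas smooth muscle stands at −0.04 and the respiratory chain at −0.00.

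Smooth muscle forms vessel walls and the arrector pili of hair follicles, and most of its genes did not pass. Of 12 smooth muscle genes 2 were lower (0.885% of all genes), Des (−2.94 ± 0.50, adjusted p = 0.00299) and Synpo2 (−3.54 ± 0.65, adjusted p = 0.00499). Both are also made by skeletal muscle and followed the muscle mean. Acta2, smooth muscle actin, read 11.67, 11.93 and 11.71 at 0 weeks and 11.77, 11.36 and 12.01 at 12 weeks (−0.06 ± 0.15, adjusted p = 0.902). Myh11, smooth muscle myosin, read 8.52, 8.12 and 8.14 and then 8.15, 8.65 and 7.92 (−0.02 ± 0.44, adjusted p = 0.992). The groups overlapped in both.

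Outside the lists 41 further genes followed muscle and fell (median −2.59), among them Asb5, an ankyrin repeat gene of muscle, with 9.94, 8.80 and 8.99 at 0 weeks and 3.80, 5.79 and 4.20 at 12 weeks (−4.64 ± 0.63, adjusted p = 4.0e-04). Of the 62 listed genes 34 passed in each of the 6 fits that leave out 1 array, and the count in these fits was lowest, at 34 and 37, without replicate 1 of 0 or of 12 weeks.

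As a set the muscle genes were low at 12 weeks and not at 6 weeks, on arrays not known to come from the same animals. Against 6 weeks 73 genes changed (0.401% of those tested), 72 of them lower (0.396%), and 66 of the 72 followed muscle. Of the 104 muscle genes 49 were lower than at 6 weeks, with a median of −2.78, whereas from 0 to 6 weeks none of the 104 changed and the median was −0.03. In that earlier interval 1 gene changed among all tested (0.0055%; 1786 at an unadjusted p under 0.05 in limma), Snhg12, which is described below. The comparisons with 0 and with 6 weeks share the 12-week arrays and are not independent of each other. With limma fitted to the 6 compared arrays alone, 0 genes passed between 12 and 6 weeks, and 1150 had an unadjusted p under 0.05.

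Few muscle genes moved under the inhibitors. From 0 to 12 weeks the median of the 104 genes was 0.64 in jak1i, where Myh2 rose and Chrna1 fell, and 0.80 in jak3i, where Dysf, a membrane repair gene, rose and none fell. In these arms 9.76% and 7.41% of all genes rose. The test of the difference between arms in the change over time called 1247 genes for PBS against jak1i (6.85%; 703 higher and 544 lower in PBS) and 827 for PBS against jak3i (4.55%; 356 and 471). Of the 104 muscle genes 60 and 68 were lower in PBS in these tests and none was higher, with a median of −3.64 in each, where 2.99% and 2.59% of all genes were lower. Both tests use the same 6 PBS arrays. Without replicate 3 of PBS at 12 weeks the counts over all genes were 276 and 69, and the second was 1 without replicate 1 of PBS at 0 weeks and 0 without replicate 1 of jak3i at 12 weeks.

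Among the falls that did not follow muscle were homeobox genes. Hox genes encode transcription factors that mark position along the body axis, and in skin their levels differ from one body site to another. Hoxa9 read 9.07, 9.16 and 7.05 at 0 weeks, 8.23, 8.99 and 7.41 at 6 weeks, and 5.41, 4.49 and 4.49 at 12 weeks (−3.63 ± 0.91, adjusted p = 0.0386). Hoxa7 read 8.22, 7.80 and 7.87, then 8.07, 8.40 and 8.07, and then 6.80, 6.98 and 6.64 (−1.16 ± 0.29, adjusted p = 0.0386), and it was also lower than at 6 weeks (−1.37, adjusted p = 0.0292). Across the 28 other arrays Hoxa7 lay between 7.22 and 8.71, so the 12-week values stood below all of them. Hoxa9 ran from 4.95 to 10.42 on those arrays, and 1 of its 12-week values lay within that range.

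After these genes had been seen, all 33 Hox genes on the array were described. The other 31 did not pass. Of the 33, 10 had no overlap between 12 and 0 weeks (30.3%, where 23.9% of all genes had none), 8 of them lower (8.18% of all genes), and the median was −0.12. Hoxa5 (8.29, 7.98 and 8.11 against 6.88, 7.11 and 7.22, adjusted p = 0.129) and Hoxa10 (5.08, 5.82 and 4.28 against 3.49, 3.53 and 3.69, adjusted p = 0.159), neighbours of the former pair in the Hoxa cluster, were likewise below all 28 other arrays at 12 weeks. Hoxc8 differed by −1.19 (adjusted p = 0.0752) and Hoxc9 by −0.62 (0.305), whereas Hoxb2 differed by 0.66 (0.0993) and Hoxd9 by −0.15 (0.897). The labels name skin with no body site, and whether sites differed between the groups was not tested.

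**Figure D4:**
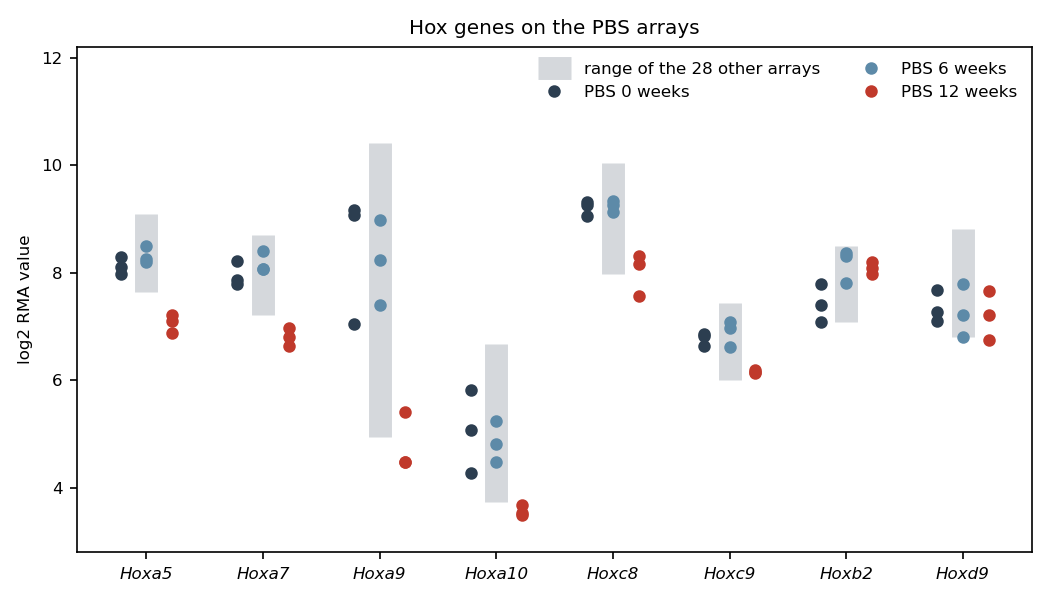
Log2 RMA values of 8 Hox genes on the 9 PBS arrays, by week, beside the range over the 28 arrays that are not PBS at 12 weeks (grey bars, which include the PBS arrays at 0 and 6 weeks). The 12-week values of Hoxa5, Hoxa7 and Hoxa10 lie below the grey bars, and those of Hoxb2 lie within theirs.

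The other falls were mostly small. Outside the muscle lists, 58 genes that did not follow muscle fell, with a median of −0.63, and 48 of them by less than 2-fold. Bex1, which is made by neurons and by regenerating muscle, read 9.42, 9.05 and 8.47 at 0 weeks and 7.07, 6.25 and 6.18 at 12 weeks (−2.47 ± 0.55, adjusted p = 0.0184), with a muscle correlation of 0.66. Shisa2, an inhibitor of Wnt and FGF receptors, read 9.75, 9.96 and 9.74, then 9.24, 9.44 and 8.89, and then 7.88, 8.07 and 8.44 (−1.69 ± 0.43, adjusted p = 0.0386). Prkg1, the cGMP-dependent kinase (−1.44 ± 0.39, adjusted p = 0.0493), had a muscle correlation of 0.69, and its difference was 0.23 with the muscle mean as a covariate. The other falls of at least 2-fold outside the muscle lists, named after their values were seen, were those of Efcab1 (−1.32), the autophagy gene Rb1cc1 (−1.05), Enho (−1.04) and Ubr3 (−1.01).

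The rises were many and shallow. Of the 253 genes that rose, 243 rose by less than 2-fold, 252 had no overlap between the groups and the range was 0.24 to 2.20. A shift common to all genes matters at this size: centring each array on its median moved all differences by −0.064 and left 242 changed genes, 81 higher and 161 lower, so that the share of rises went from 61.1% to 33.5%. Only 13 of the 253 passed in each of the 6 fits that leave out 1 array, 14 passed when the 6 arrays were fitted alone, and 0 with the muscle mean as covariate. That last fit called 2 genes in all, Parvb (1.50, adjusted p = 0.0113) and Plcl2 (1.69, adjusted p = 0.0113), and its median standard error was 0.233 against 0.145 without the covariate, on which every 12-week array lay below all others. The median of the 253 genes was 0.30 from 0 to 6 weeks and 0.20 from 6 to 12 weeks. It was 0.11 in jak1i and 0.03 in jak3i from 0 to 12 weeks.

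The largest rise that passed was that of Wfdc12, the gene of a secreted whey acidic protein family member, which read 6.35, 6.12 and 6.27 at 0 weeks, 6.96, 6.52 and 6.75 at 6 weeks, and 8.24, 9.68 and 7.41 at 12 weeks (2.20 ± 0.54, adjusted p = 0.0357), a 4.58-fold higher level. Pou2af1, a transcriptional coactivator of B cells, read 3.65, 3.32 and 3.44, then 4.05, 3.46 and 3.74, and then 4.05, 5.75 and 4.99 (1.46 ± 0.31, adjusted p = 0.0133). It was dim on every array. The plasma cell gene Mzb1 differed by 0.95 ± 0.30 (adjusted p = 0.106) and did not pass, with 6.98, 6.05 and 6.35 against 6.66, 8.16 and 7.41.

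Ptges, which makes prostaglandin E, read 7.47, 6.87 and 7.11 at 0 weeks and 8.25, 8.46 and 7.95 at 12 weeks (1.07 ± 0.27, adjusted p = 0.0395), and its 6-week values of 7.77, 7.79 and 8.18 lay above all those of 0 weeks. The chaperone gene Hsph1 read 9.16, 8.66 and 9.61, then 9.59, 9.67 and 10.79, and then 10.34, 10.68 and 10.23 (1.27 ± 0.30, adjusted p = 0.0252), and its partner Hspa1a went from 10.77, 10.68 and 10.98 to 11.69, 12.09 and 11.20 (0.85 ± 0.21, adjusted p = 0.0382). These heat shock genes, whose products refold proteins, were the 2 of 17 immediate stress genes that changed, where 2.28% of all genes did. Nt5dc2 (1.29 ± 0.31, adjusted p = 0.0301), Ankrd37, a target of hypoxia signalling (1.12 ± 0.27, adjusted p = 0.0345), Hs3st3b1, a heparan sulfate enzyme (1.12 ± 0.28, adjusted p = 0.0395), the homeobox gene Hhex (1.07 ± 0.28, adjusted p = 0.0474), Ccnb1ip1 (0.98 ± 0.21, adjusted p = 0.0169) and Macir (0.94 ± 0.20, adjusted p = 0.0158) also rose.

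In 3 of the genes that rose the 6-week values lay near those of 12 weeks, though only Snhg12 passed between 0 and 6 weeks. Nufip2, an RNA-binding protein gene, read 8.46, 8.60 and 8.83 at 0 weeks, 9.53, 9.99 and 9.15 at 6 weeks, and 9.62, 9.95 and 9.52 at 12 weeks (1.07 ± 0.21, adjusted p = 0.0103), and its difference from 0 to 6 weeks was 0.93 (adjusted p = 0.257). Rpl12, a ribosomal protein gene, read 7.62, 7.67 and 7.88, then 8.50, 8.84 and 8.89, and then 8.72, 8.77 and 8.59 (0.97 ± 0.19, adjusted p = 0.00765), with 1.02 from 0 to 6 weeks (adjusted p = 0.0769). Snhg12, a host gene of small nucleolar RNAs, read 8.32, 8.33 and 8.45, then 9.01, 9.02 and 9.30, and then 9.19, 9.11 and 8.85, and it passed at 6 weeks (0.74, adjusted p = 0.018) and at 12 weeks (0.68 ± 0.11, adjusted p = 0.00235). In these 3 genes no 6-week or 12-week array reached down to a 0-week value. Snhg12 and Fbl, the gene of fibrillarin (0.49 ± 0.13, adjusted p = 0.0479), were the 2 of 18 ribosome-making genes that rose (median of the 18, 0.24). Of all genes 1.39% rose. Without overlap 13 of the 18 were higher, where 15.7% of all genes were.

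No gene of the cell cycle list passed in limma (5 of 24 at an unadjusted p under 0.05, where 2960 of all genes were), and 23 of the 24 were higher without overlap, where 15.7% of all genes were, with a median of 0.55. The list mean was 8.36 to 8.46 at 0 weeks, 8.44 to 9.12 at 6 weeks and 8.88 to 9.17 at 12 weeks. Aurka, a kinase of the mitotic spindle, read 6.63, 6.72 and 6.88, then 7.05, 7.51 and 7.80, and then 7.71, 7.58 and 7.91 (0.99 ± 0.36, adjusted p = 0.159). Birc5 (0.92, adjusted p = 0.292), Bub1 (0.89) and Aurkb (0.86) differed in the same direction without passing. Genes of 1 list share their arrays and are no replicates of each other.

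Genes of stressed keratinocytes, which mark wounded or inflamed epidermis, were higher without overlap in 9 of 14 (15.7% of all genes), with a median of 1.06, and none passed in limma (2 at an unadjusted p under 0.05). Their mean was 9.92 to 10.24 at 0 weeks, 10.21 to 10.59 at 6 weeks and 10.84 to 11.16 at 12 weeks. Krt6b, a keratin of activated epidermis, read 11.32, 11.61 and 10.76, then 11.77, 11.56 and 11.44, and then 12.61, 13.86 and 12.55 (1.78 ± 1.29, adjusted p = 0.54). Sprr1b, a cornified envelope gene, read 8.86, 9.45 and 8.28 and then 10.21, 11.70 and 11.27 (2.20 ± 1.41, adjusted p = 0.471). In both, all 3 values at 12 weeks lay above those at 0 weeks. The test against jak1i of the change over time passed for Krt6b, with a change in PBS minus that in jak1i of 6.77.

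Of 22 genes of epidermal differentiation 7 were higher without overlap (31.8%, against 15.7% of all genes) and none passed (median 0.12). Casp14, a protease of the cornified layer, read 8.40, 8.51 and 8.47 at 0 weeks, 9.13, 9.10 and 9.09 at 6 weeks, and 9.65, 9.71 and 9.22 at 12 weeks (1.07 ± 0.41, adjusted p = 0.194). Tgm3 (0.90), Krt1 (0.85, adjusted p = 0.338) and Cnfn (0.61) differed in the same direction. None of the 9 basal keratinocyte genes changed (median 0.02).

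No follicle gene passed. Of 25 hair shaft genes 0 changed in limma, 0 had an unadjusted p under 0.05 and 0 were free of overlap, with a list mean of 10.29 to 10.71 at 0 weeks and 10.15 to 11.86 at 12 weeks. Krtap15, a keratin-associated protein of the shaft, read 11.69, 12.18 and 11.49 and then 11.89, 11.66 and 13.41 (0.53 ± 1.73, adjusted p = 0.921), with replicate 3 alone high at 12 weeks. Krt31, a hard keratin, differed by 0.29 ± 1.45 (adjusted p = 0.952). In the bulge, where follicle stem cells reside, 4 of 11 genes were lower without overlap, where 8.18% of all genes were, and none passed (median −0.40). The same number had an unadjusted p under 0.05 in limma, as had 2960 of all 18193 genes. Lgr5, a stem cell receptor for R-spondins, read 9.29, 10.04 and 9.69, then 9.11, 9.55 and 9.11, and then 8.40, 8.43 and 8.15 (−1.35 ± 0.40, adjusted p = 0.0812). Krt15 read 12.41, 12.34 and 12.41 and then 11.90, 11.68 and 11.71 (−0.62 ± 0.37, adjusted p = 0.428). Its standard error, like the others here, rests on the spread within all 11 groups, inhibitor arms included, and not on these values alone.

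The genes most tied to the disease, those of cytotoxic lymphocytes and of interferon-γ, did not pass in PBS skin. None of 19 cytotoxic, 18 T cell, 17 interferon-γ response, 10 MHC class I and 7 MHC class II genes passed in limma, where 2.28% of all genes did, and 3, 1, 0, 0 and 1 of them had an unadjusted p under 0.05. Without overlap between the groups, 5 cytotoxic genes were higher and 1 lower, 3 T cell genes were lower, 3 interferon-γ response genes were higher, and 1 MHC class I gene was higher and 1 lower. Of all genes 15.7% were higher and 8.18% lower without overlap. In MHC class II, whose products present peptides to helper T cells, 4 of 7 were higher without overlap (57.1% without overlap, where 15.7% of all genes were higher), with a median of 0.40. H2-DMa (0.72, adjusted p = 0.203) and H2-Ab1 (0.50, adjusted p = 0.311) were among them. The 16 genes of the type I interferon response also had a median of 0.40, from 0.01 to 0.93, and none passed in limma (2 at an unadjusted p under 0.05). Higher without overlap were 2 of the 16, Oas2 (0.93, adjusted p = 0.212) and Oasl1 (0.78, adjusted p = 0.223), where 15.7% of all genes were. Without replicate 2 of 12 weeks 10 of the 16 were higher without overlap, where 22.6% of all genes then were. Replicate 2 had the lowest list mean at 12 weeks (8.78 against 9.22 and 9.7). Leaving out an array cannot lower such a count, so no conclusion is drawn from it. Gzmb, the gene of granzyme B, read 9.74, 10.29 and 10.36 at 0 weeks, 8.89, 9.57 and 10.22 at 6 weeks, and 9.75, 8.55 and 10.77 at 12 weeks (−0.44 ± 0.73, adjusted p = 0.831). Ifng read 6.65, 6.64 and 7.04 and then 7.18, 7.05 and 8.01 (0.63 ± 0.60, adjusted p = 0.663). Cxcl9, a T cell chemokine that interferon-γ induces, read 12.65, 12.65 and 12.66 and then 12.62, 12.08 and 13.45 (0.06 ± 1.07, adjusted p = 0.986). For these 3 genes the 12-week replicates spread more widely than those of 0 weeks, with replicate 2 lowest and replicate 3 highest.

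Gzma (−0.77 ± 0.71, adjusted p = 0.649), Cd8a (−0.46 ± 0.29, adjusted p = 0.468), Klrk1, which encodes the receptor NKG2D (0.40, adjusted p = 0.586), Cxcl10 (0.30, adjusted p = 0.925) and Il15 (0.12, adjusted p = 0.864) did not pass either. A p above the threshold does not show that their levels were equal, and the spread behind it is pooled within all 11 groups, inhibitor arms included. From 0 to 12 weeks 15 of the 19 cytotoxic genes fell in jak1i and 12 in jak3i, where 6.5% and 2.85% of all genes fell. The test of the difference between arms called 11 of the 19 against each inhibitor, all higher in PBS, with medians of 1.81 and 1.54, where 3.86% and 1.96% of all genes were higher. The list mean at 12 weeks, 7.18 to 7.95, stood at the upper end of the 28 other arrays, 4.95 to 7.69.

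Among other immune cells, mast cell genes were higher without overlap in 10 of 11 (15.7% of all genes), with a median of 0.93, and none passed in limma (0 at an unadjusted p under 0.05). Their mean was 6.05 to 6.36 at 0 weeks, 5.93 to 8.02 at 6 weeks and 6.81 to 8.06 at 12 weeks. Cpa3, a mast cell protease, read 8.78, 7.49 and 7.92, then 10.82, 7.11 and 8.47, and then 8.81, 10.78 and 9.24 (1.55 ± 0.81, adjusted p = 0.354). The 6-week array with the high value, replicate 1, and the 12-week array with the high value, replicate 2, were also the highest of their groups in the fat list, with means of 10.27 and 10.66 against 9.03 to 9.44 at 0 weeks. Without replicate 2 of 12 weeks the count was 10 of the 11, where 22.6% of all genes then were higher without overlap. Leaving out an array cannot lower such a count. Whether fat content bears on the mast cell values was not tested.

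Macrophage genes had a median of 0.75, with 9 of 24 higher and 1 lower without overlap (15.7% and 8.18% of all genes), and none passed in limma (6 at an unadjusted p under 0.05). Fcgr1, a high-affinity receptor for IgG, read 6.89, 6.91 and 7.16, then 8.71, 6.31 and 7.77, and then 8.22, 8.21 and 11.25 (2.24 ± 0.69, adjusted p = 0.091). Cd163, a scavenger receptor of resident macrophages, differed by −1.37 (adjusted p = 0.215). On the neutrophil list 1 of 20 genes changed (2.28% of all genes), Wfdc12, and which cells made it was not tested. The list had a median of 0.61, and 7 genes had an unadjusted p under 0.05 in limma. Without overlap 7 were higher and 2 lower (15.7% and 8.18% of all genes). Without replicate 2 of 12 weeks 12 were higher, where 22.6% of all genes then were. Replicate 2 had the lowest list mean at 12 weeks (7.71 against 8.21 and 8.51), and leaving out an array cannot lower such a count. Cxcl5, a neutrophil chemokine, read 3.29, 4.26 and 3.95 and then 5.76, 6.03 and 8.21 (2.83 ± 0.90, adjusted p = 0.104). Of 15 fat cell genes, whose tissue lies next to the muscle sheet, 0 changed in limma and 2 had an unadjusted p under 0.05. Adipoq, the gene of adiponectin, read 10.21, 9.57 and 10.42, then 12.02, 7.97 and 9.63, and then 9.80, 12.47 and 10.58 (0.88 ± 0.79, adjusted p = 0.64), and the list mean, 9.0 to 10.66 at 12 weeks, overlapped with that of 0 weeks.

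**Figure D5:**
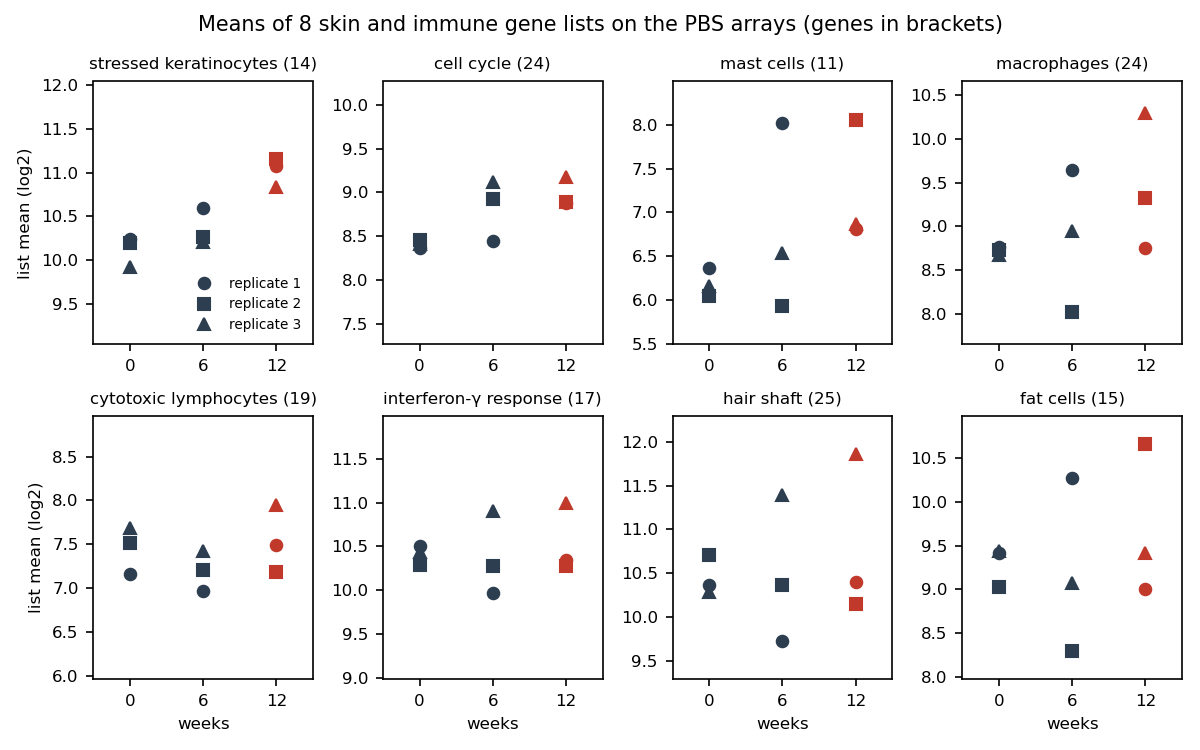
Mean log2 RMA value of 8 gene lists on the 9 PBS arrays at 0, 6 and 12 weeks, with a marker for each replicate number and red for 12 weeks. Numbers in brackets are genes per list, each panel has its own vertical range, and replicate numbers are not known to link animals across weeks. The lists of stressed keratinocytes, cell cycle and mast cells lie above 0 weeks on every 12-week array, whereas cytotoxic, interferon-γ, hair shaft and fat lists overlap with 0 weeks.

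Melanocyte genes had a median of 0.70 with 0 of 11 changed, and Mlana (1.58), Tyr (1.50), Pmel (1.39, adjusted p = 0.495) and Tyrp1 (1.30) were its largest differences. Sebaceous genes had a median of 0.02 with 5 of 14 lower without overlap (8.18% of all genes), led by the lipid genes Scd3 (−1.74, adjusted p = 0.388) and Far2 (−1.34, adjusted p = 0.245). The lists of fibroblasts (median 0.21), collagens (0.26), endothelium (0.31), Schwann cells (−0.04) and JAK-STAT signalling (0.16) had no changed member. None of 6 brown fat genes passed in limma (1 at an unadjusted p under 0.05), with a median of −0.26. Their mean was 6.72 to 7.03 at 0 weeks, 6.55 to 6.71 at 6 weeks and 6.45 to 6.64 at 12 weeks, and 2 of the 6 were lower without overlap (8.18% of all genes). These were Elovl6, a fatty acid elongase (−0.91, adjusted p = 0.225), and Ppargc1a, a coactivator of mitochondrial genes (−0.77, adjusted p = 0.38), which followed muscle with a correlation of 0.76. The defining gene of brown fat, Ucp1, was dim, between 4.35 and 4.84 on the 6 arrays.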

How the data were processed

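Total RNA of skin was extracted with the Qiagen miRNeasy kit and a DNase step on the column, and labelled with the Affymetrix 3' IVT Express kit, per the labels' protocols. The deposited values are log2 expression values that the authors made with RMA, per the submitters' processing notes, with no version stated there. They ran from 2.59 to 14.69 with no missing value. Depth has no counterpart on arrays, and the number of arrays limits the precision. Neither detection calls nor dates of scanning were used, and batches of scanning were not tested. Weeks were read from the titles. The series holds PBS skin at 0, 6 and 12 weeks, and its arrays at 24 weeks are all of the inhibitor arms.

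Of 45101 probe sets, 64 were controls. A probe set was named where the platform table gave 1 symbol (34958; 932 gave several and 9211 none), and symbols were checked by Entrez identifier against RefSeq (34754 matched, 0 changed). The 34945 probe sets used covered 18193 genes, and each of the 9010 genes with several was represented by its brightest probe set (highest mean of 31 arrays).

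The test was limma 3.58.1 in R 4.3.3 with 11 group means, 20 residual and 2.50 prior degrees of freedom, and Benjamini-Hochberg adjustment within each comparison. Standard errors and p-values rest on a spread for each gene pooled within all 11 groups, inhibitor arms included. They do not measure the spread of the compared PBS arrays alone, which can be smaller or larger. Tables and figures were made with Python 3.11.15, pandas 2.3.3 and matplotlib 3.10.9. On simulated data for 12 against 0 weeks (18193 genes), 98% of changes of 3, 86% of 1.5 and 72% of 0.75 on the log2 scale were called, and 0.0611% of unchanged genes. The simulated noise was independent between genes and of equal spread in every group, and the changed genes were drawn at random. These shares therefore check the procedure and do not give the power for the genes described above.

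The members and the 44 gene lists (672 measured genes) were chosen with earlier results of these data known. Named genes were, among changed genes without overlap, the 12 largest rises and 12 largest falls that did not follow muscle and the 12 largest falls that did, any skeletal muscle list member, the 4 largest differences and all changed members of every other list, and a fixed set of 14 genes. Gene models without a name were skipped.

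Pairing by replicate number was looked at: deviations of same-numbered arrays at 0 and 12 weeks correlated at −0.33, −0.47 and −0.20. The values were 0.16, 0.38 and 0.0 for 0 and 6 weeks, and −0.3, −0.44 and 0.29 for 6 and 12 weeks. With 3 arrays a group, such values cannot decide whether equal numbers mark the same animal, and the arrays were not treated as paired. Alternatives were centring, a filter on dim genes (under 7.404 on all but 1 array), the mean of probe sets, a trended robust variance, the compared arrays alone, the replicate number as a fixed or a random block, the muscle mean as covariate, likeness limits of 0.5 and 0.85, and leaving out each array. Without replicate 2 of 12 weeks the overlap counts of skin lists were repeated, and this and the description of all Hox genes were added after seeing the data. These overlap counts were not repeated without replicate 1 or 3.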

Additional observations from a re-analysis of the deposited data

Results flagged for a closer look

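The change from 0 to 12 weeks differed between PBS and the inhibitors by the limma test of that difference (adjusted p under 0.05), in 1247 genes against jak1i and 827 against jak3i. Of the 104 muscle genes 60 and 68 differed, all lower in PBS. Both tests share the PBS arrays. Values below are the log2 change from 0 to 12 weeks in PBS minus that in the inhibitor arm. They are not differences in level.

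Among genes of muscle or falling in PBS skin, Myh2 differed by −7.68 against jak1i and −5.79 against jak3i, Myhas by −3.70 and −3.32, and Myoz2 by −5.17 and −3.99. Fabp3 differed by −4.28 and −3.63, Bex1 by −3.65 and −3.16, Xirp1 by −1.76 and −1.91, and Prkg1 by −2.28 and −2.45. Shisa2 differed by −2.04 against jak1i. Against jak3i alone among the 2 tests Sln (−4.57), Hoxa9 (−4.78), Chrna1 (−2.64) and Myog (−3.31) passed.

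Among rises, Pou2af1 differed by 1.75 and 1.50, Nt5dc2 by 2.10 and 1.84, Ankrd37 by 1.48 and 1.41, and Ptges by 1.77 and 1.35, whereas Wfdc12 differed by 3.61 against jak1i. The change over time was also higher in PBS for Gzma, Gzmb, Ifng and Klrk1, none of which changed in PBS skin itself. Gzma differed by 4.14 and 4.03, Gzmb by 4.80 and 3.59, Ifng by 3.54 and 3.37, and Klrk1 by 1.90 and 1.59. The median change of the 19 cytotoxic genes was 0.2 in PBS, −1.5 in jak1i and −1.35 in jak3i. Cd8a differed by 1.75 and the keratin gene Krt6b by 6.77 against jak1i, and neither changed in PBS skin itself.

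Probe sets without a single gene name lie outside the gene comparison. Of 10092 such probe sets 80 changed from 0 to 12 weeks in PBS skin (0.793%), 35 higher and 45 lower, with differences from −3.92 to 1.81, against 599 of 34945 probe sets with 1 gene name (1.71%).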

How the results depend on the processing

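For 12 against 0 weeks, 414 genes changed, and 242 after centring, 165 when only compared arrays were fitted, 2 with the muscle mean as covariate and 83 to 404 with 1 array left out (83 and 103 without replicate 1 or 2 of 0 weeks, 150 and 164 without replicate 1 or 3 of 12 weeks). The 318 changed genes that do not follow muscle became 143, 68 and 0 in the same 3 settings, 208 with the random replicate block and 34 to 325 with 1 array left out (42 and 34 without replicate 1 or 2 of 0 weeks, 99, 188 and 100 without replicate 1, 2 or 3 of 12 weeks). The 62 muscle genes became 34 to 58 with 1 array left out, 62 after centring, 48 when only compared arrays were fitted and 0 with the covariate, which is made of these genes. For 12 against 6 weeks, 73 became 0 with the compared arrays alone and 27 to 92 with 1 array left out (27 and 38 without replicate 1 or 3 of 6 weeks, 30 and 40 without replicate 1 or 3 of 12 weeks). For 6 against 0 weeks, 1 became 3 with the mean of probe sets, 0 with the compared arrays alone (1938 at an unadjusted p under 0.05 in limma) and 0 to 4 with 1 array left out. The difference between arms became 2239 (jak1i) and 1894 (jak3i) with the compared arrays alone, 489 for jak3i with the random replicate block, and 276 to 1916 and 0 to 1182 with 1 array left out. In every one of these the cause was not tested. The fixed replicate block gave 405, 314, 61, 62 and 1126 for the first 4 counts and jak1i, and changed no other count by over 1.5 times. Of the checks of named genes 515 kept their direction and side of the threshold, 163 lost their call, 19 values without a call moved by more than the spread between replicates, and 1 reversed: Prkg1, 0.23 with the muscle covariate (adjusted p = 0.888). At 3 arrays a group, and with no detection calls, small changes and genes near background are the least certain.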
